A study of Homo sapiens with 6 samples.

Results

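The genes described here encode the hypoxia-inducible factor (HIF) subunits, the enzymes that mark them for destruction, and RNAs transcribed antisense to HIF1A. The 8 members were taken by gene symbol from the 46427 genes of the deposited gene table, and their 41 transcript models from 170322 in the transcript table. They are HIF1A, HIF1A-AS3, HIF1A-AS1, EPAS1, ARNT, HIF1AN, EGLN1 and VHL. HIF1A and HIF1A-AS3 were picked because they changed in opposite directions in these libraries, so their values are given as a description with no test. The other 6 were chosen by name and are tested. They and the lists of pathway and target genes below were chosen with earlier results of these data known. RNA came from MDA-MB-231, an invasive human breast cancer cell line grown in low glucose medium with serum, and no low-oxygen treatment is named. Cells received control-siRNA (3 libraries, genotype labelled WT) or siRNA targeting WWTR1, which encodes TAZ (3 libraries, labelled TAZ knockdown), and the labels name 1 transfection protocol, that of the WWTR1 siRNA, for all 6 libraries. Each library is 1 cell preparation of 1 line, and mRNA was read from strand-specific libraries.

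HIF is a transcription factor made of an oxygen-labile alpha subunit, HIF1A or EPAS1, and the constitutive partner ARNT. When oxygen is present, prolyl hydroxylases such as EGLN1 modify the alpha subunit, which VHL then recognises for ubiquitination and destruction by the proteasome, while HIF1AN hydroxylates an asparagine that blocks the binding of coactivators. Much of this control acts on the protein, which RNA sequencing does not measure.

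The libraries held 48307548 to 71749634 counts, where 3 counts, taken as the floor of detection, equal 0.0411 to 0.0618 CPM (counts scaled to the normalized library size). WWTR1, the target of the siRNA, had 12828, 11808 and 9228 counts with control-siRNA and 1263, 840 and 843 with TAZ-siRNA. Replicates are numbered 1 to 3 as in the sample descriptions, whereas the sample titles number the same libraries 3 to 5 in that order. TAZ-siRNA replicate 3 stood apart, with a chi-square of 30.1 and 41.8 per degree of freedom against the other libraries of its group, which differed from each other by 11.7. Control-siRNA replicate 3 differed from its group by 22.1 and 20.1, against 6.77 between the other two. Without TAZ-siRNA replicate 3, the number of genes called rose from 3749 to 5928. VIM (3574 CPM with control-siRNA), CD44 (524) and the keratins KRT8 (500) and KRT18 (557) were abundant. With control-siRNA, the epithelial markers EPCAM (1.30 CPM) and CDH1 (0.290) were low but above the floor in each library. ESR1 (0.0137) and PGR (0.0100) were below the floor in each of these libraries, and the leukocyte marker PTPRC had no count in any library of either group. Against these, the receptor ERBB2 was at 46.7 CPM with control-siRNA. PECAM1, listed with PTPRC as a marker that the line should lack, was at 4.67 CPM, above EPCAM. Of 9 markers tested KRT19 alone passed, where 22.1% of all genes did, and 9 are too few to compare. KRT19 was at 63.4 CPM with control-siRNA and 81.7 CPM with TAZ-siRNA, and its part in the results was not tested.

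The models at the HIF1A locus were compared first, because antisense genes can share exonic sequence with the gene they overlap and whether the counting used strand is not stated. HIF1A lies on the plus strand of chromosome 14 of GRCh38, from 61695513 to 61748259. The HIF1A-AS3 transcript, on the minus strand, runs from 61751097 down to 61715558 and has 3 exons with 533 bases in all. Exon 1 (61750885 to 61751097) begins 2839 bases downstream of the last base of HIF1A variant 1. Exon 2 (61716969 to 61717017) and exon 3 (61715558 to 61715828) lie in intron 1 of HIF1A, 3364 and 4553 bases from its nearest exon. HIF1A-AS3 therefore shared 0 of its 533 exonic bases with the 3 deposited HIF1A models, and 0 with the exons of the 12 HIF1A models in GENCODE. Unspliced HIF1A RNA could overlap 320 of its bases, those of exons 2 and 3.

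The exon and intron bases at both splice junctions of HIF1A-AS3 are shown because they carry the strand of the RNA. Capitals mark exon bases, and each line is read 5′ to 3′ on the minus strand.
HIF1A-AS3 intron 1 donor, chr14:61750875-61750899: AACTATCCACTACAGgtaagaataa
HIF1A-AS3 intron 1 acceptor, chr14:61717003-61717027: tgtttttaagTACAGGTCAAGTGAA
HIF1A-AS3 intron 2 donor, chr14:61716959-61716983: CTGCTACTGCATAAGgtactatatt
HIF1A-AS3 intron 2 acceptor, chr14:61715814-61715838: ttttttgcagAGACGGAATCTATGT
Both introns began with GT and ended with AG on the minus strand, the common splice signal, so a read that crosses either junction carries its strand in the sequence.

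The other antisense genes differed in this respect. HIF1A-AS1 (61681041 to 61695823) shared 117 of its 652 exonic bases (17.9%) with HIF1A exons, and its first base lay 310 bases inside HIF1A. HIF1A-AS2 (61747039 to 61749089), which is not a member but was named by the rule for overlapping genes, is a single unspliced exon. It shared 1221 of its 2051 bases (59.5%) with HIF1A exons at the 3′ end of the gene. A read that lies wholly within such shared bases can be told apart only by strand.

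**Figure D1:**
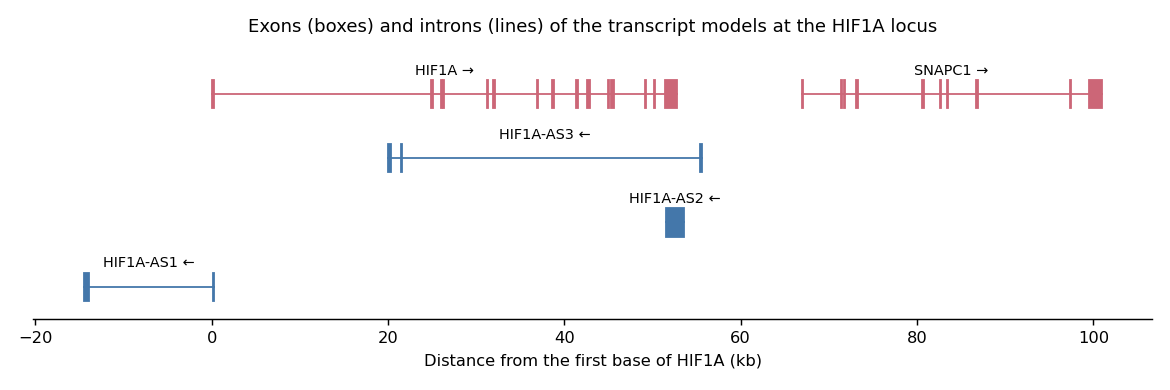
Map of the HIF1A locus, with distance from the first base of HIF1A in kb on the horizontal axis. Boxes are exons and lines introns of HIF1A variant 1, SNAPC1 and the 3 antisense genes, with arrows for the direction of transcription. HIF1A-AS3 has no box under a HIF1A box, whereas HIF1A-AS2 lies under the last HIF1A exon.

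The 250 bases upstream of HIF1A-AS3 and of HIF1A are shown because these were the members picked for opposite changes. They are from RefSeq on GRCh38.p14, and capitals mark the letters ACGTG or GCGTG on either strand, the core that HIF binds.
HIF1A-AS3, minus strand, chr14:61751098-61751347: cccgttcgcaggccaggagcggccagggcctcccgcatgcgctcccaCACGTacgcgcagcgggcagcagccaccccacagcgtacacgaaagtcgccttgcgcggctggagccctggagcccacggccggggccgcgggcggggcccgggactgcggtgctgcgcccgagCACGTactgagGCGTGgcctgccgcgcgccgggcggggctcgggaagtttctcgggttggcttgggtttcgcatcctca
HIF1A, plus strand, chr14:61695263-61695512: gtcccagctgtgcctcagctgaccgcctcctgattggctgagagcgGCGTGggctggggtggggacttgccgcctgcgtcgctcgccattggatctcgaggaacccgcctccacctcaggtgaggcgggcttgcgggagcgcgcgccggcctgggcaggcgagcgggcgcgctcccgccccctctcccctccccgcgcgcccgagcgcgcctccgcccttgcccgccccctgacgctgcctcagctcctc
The HIF1A-AS3 window held ACGTG 2 times and GCGTG 1 time, and the HIF1A window held GCGTG 1 time. A second HIF1A window, chr14:61697462-61697711 around the first base of variant 3, held neither, nor GGAATG. One or other of these cores was present in 43.2% of 35116 promoter windows of the same length, ACGTG in 18.5% and GCGTG in 32.2%. The letters GGAATG on either strand, the core bound by the TEAD partners of TAZ, were in neither printed window and in 11.9% of all windows. EGLN1 held 1 ACGTG and EPAS1 1 GCGTG, HIF1A-AS1 held 1 ACGTG and 1 GGAATG, and ARNT and HIF1AN held none of the 3 motifs. Windows were found for 7 of the 8 members, all but VHL, and a match is a description of letters only.

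HIF1A, which encodes the alpha subunit HIF-1α, was the most abundant member, and its mRNA was higher with TAZ-siRNA. Its counts were 19759, 18618 and 13673 with control-siRNA and 32591, 20094 and 23197 with TAZ-siRNA. Scaled to library size, these were 296, 299 and 282 CPM against 447, 407 and 415 CPM. The lowest library with TAZ-siRNA was above the highest with control-siRNA. The means were 292 ± 9.47 CPM (SD, n = 3) and 423 ± 20.9 CPM (SD, n = 3), or 145% of control-siRNA, with a log2 change of 0.53 (SE, the standard error, 0.058). This difference was among the values that chose the gene. In RNA from whole cultures, more cells that express a gene and more of its RNA per cell cannot be told apart.

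HIF1A-AS3, a long noncoding RNA with 1 deposited model, moved the other way. Its counts were 293, 251 and 210 with control-siRNA and 50, 42 and 61 with TAZ-siRNA, that is 4.39, 4.03 and 4.32 CPM against 0.686, 0.852 and 1.09 CPM. All TAZ-siRNA libraries were far below all control-siRNA libraries, and all were above the floor of 3 counts. The mean fell from 4.25 ± 0.191 CPM (SD, n = 3) to 0.877 ± 0.204 CPM (SD, n = 3), or 20.6% of control-siRNA, with a log2 change of -2.29 (SE 0.18). Groups that did not overlap were seen in 39.6% of the 16966 genes tested, 19.6% lower and 20.0% higher with TAZ-siRNA, and both members were picked for their change, so nothing is read from this.

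The counts of the pair were summed in each library to see how much of the difference in HIF1A could have been reads passed between the genes. The sums were 20052, 18869 and 13883 counts with control-siRNA and 32641, 20136 and 23258 with TAZ-siRNA. In CPM, the sum was 297 ± 9.38 (SD, n = 3) and 424 ± 20.8 (SD, n = 3), or 143% of control-siRNA, and the log2 change of the sum was 0.52 (SE 0.058). HIF1A gained 131 CPM between the group means, while HIF1A-AS3 changed by -3.37 CPM. The difference in HIF1A was thus nearly as large when the antisense counts were added to it. With HIF1A-AS3 at 1.43% of the summed counts with control-siRNA, the sum could differ little from HIF1A. For the same reason the sum cannot show whether reads lost by HIF1A-AS3 passed to HIF1A, which was not tested. With HIF1A-AS1 and HIF1A-AS2 added too, the log2 change was 0.51.

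Per length, HIF1A-AS3 was less minor than its counts imply. In FPKM (fragments scaled to transcript length and library size), it was at 10.9, 9.95 and 11.3 per 100 of HIF1A in the control-siRNA libraries and at 1.12, 1.53 and 1.93 per 100 in the TAZ-siRNA libraries. Its share of the summed counts fell from 1.43 ± 0.0941% (SD, n = 3) to 0.208 ± 0.0545% (SD, n = 3).

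HIF1A-AS1 was barely detected. Its counts were 6, 6 and 22 with control-siRNA and 8, 4 and 6 with TAZ-siRNA, and it did not pass the expression filter, so it has no test. The libraries overlapped, and control-siRNA replicate 3 alone held the high value (0.453 CPM, against 0.0811 to 0.110 CPM in the other 5 libraries). A difference was not detectable at this depth.

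HIF1A-AS2, which overlaps the HIF1A 3′ end, was also lower in response to TAZ knockdown. Its counts were 116, 110 and 48 with control-siRNA and 46, 27 and 23 with TAZ-siRNA. Scaled to library size, the groups did not overlap, at 1.50 ± 0.442 CPM (SD, n = 3) and 0.530 ± 0.111 CPM (SD, n = 3). The log2 change was -1.50 (SE 0.27, with an adjusted p = 0.0039 in the quasi-likelihood test of edgeR). Its count was 0.510 ± 0.137% of that of HIF1A with control-siRNA and 0.125 ± 0.0225% with TAZ-siRNA (SD, n = 3 each). HIF1A exons hold 59.5% of its bases, and whether any of its counts were HIF1A reads was not tested. On the far side of HIF1A-AS3, the first base of SNAPC1 lies 11323 bases away on the opposite strand. SNAPC1, a subunit of the complex that activates small nuclear RNA genes, fell from 201 ± 8.52 CPM to 95.6 ± 2.41 CPM (SD, n = 3 each), a log2 change of -1.07 (edgeR adjusted p = 1.5e-06). SNAPC1 was named after its values were seen.

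**Figure D2:**
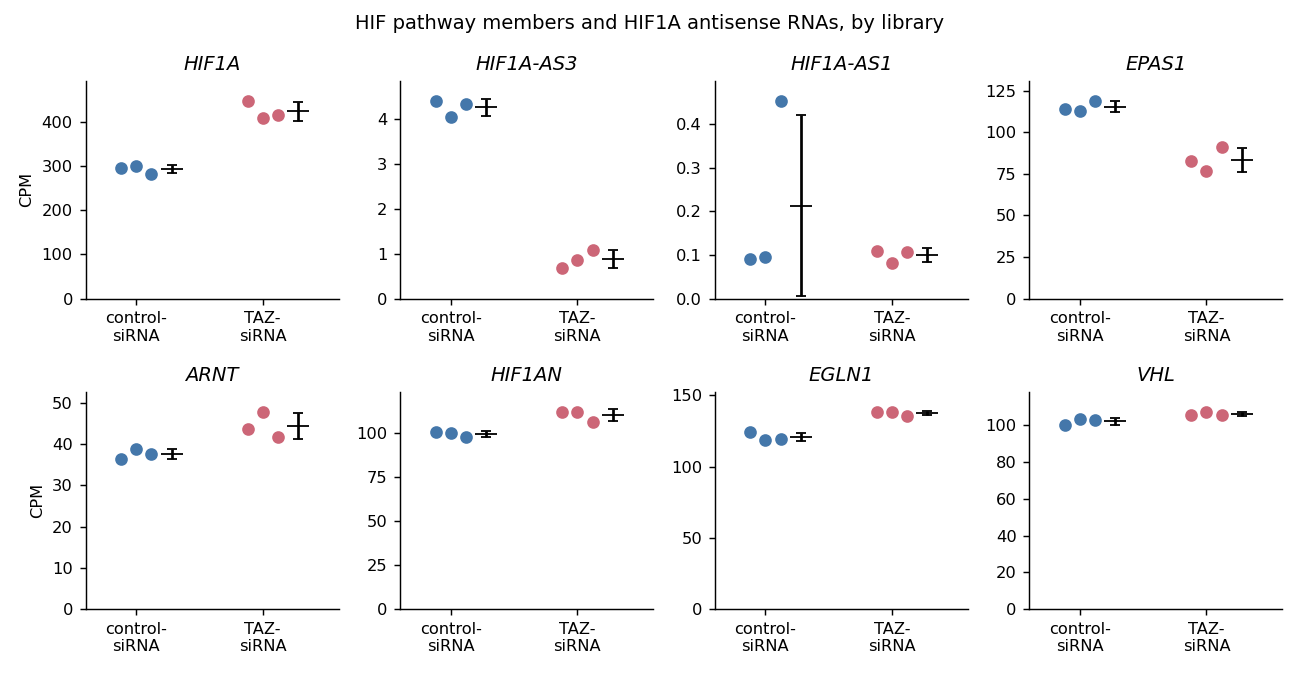
CPM of each member in each library, in 8 panels that each start at 0. Points are libraries (control-siRNA blue, TAZ-siRNA red) and the bar beside them is the mean ± SD of 3. HIF1A rises from 292 to 423 CPM and EPAS1 and HIF1A-AS3 fall, while 1 control-siRNA library sets the mean of HIF1A-AS1.

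Of the 6 members chosen by name, 5 were tested and 4 had an adjusted p under 0.05 by edgeR, 1 lower and 3 higher with TAZ-siRNA. Over all genes tested, 22.1% passed, 11.9% higher and 10.2% lower. The groups of all 5 did not overlap, where 39.6% of all genes did not.

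EPAS1 encodes HIF-2α, the other oxygen-labile subunit, and it was lower with TAZ-siRNA. The levels were 114, 113 and 119 CPM with control-siRNA and 82.4, 76.9 and 91.2 CPM with TAZ-siRNA, with no overlap between the groups. The mean fell from 115 ± 3.17 CPM (SD, n = 3) to 83.5 ± 7.24 CPM (SD, n = 3), or 72.4% of control-siRNA. The log2 change was -0.46 (SE 0.063, edgeR adjusted p = 7.8e-04), and leaving out any 1 library gave values from -0.53 to -0.41. The alpha subunits therefore moved apart. The FPKM of HIF1A was 3.39, 3.45 and 3.09 times that of EPAS1 in the control-siRNA libraries and 7.07, 6.90 and 5.93 times in the TAZ-siRNA libraries. Replicate 3 had the lowest ratio in each group.

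ARNT, the partner of both alpha subunits, was slightly higher. It was at 36.4, 38.9 and 37.5 CPM with control-siRNA and at 43.7, 47.8 and 41.6 CPM with TAZ-siRNA. The groups did not overlap, with the narrowest gap between control-siRNA replicate 2 and TAZ-siRNA replicate 3. The log2 change was 0.24 (SE 0.064, edgeR adjusted p = 0.023).

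The hydroxylases among the members also rose by small amounts. EGLN1, the main prolyl hydroxylase that senses oxygen, was at 124, 119 and 119 CPM with control-siRNA and at 139, 138 and 136 CPM with TAZ-siRNA. Its log2 change was 0.19 (SE 0.044, edgeR adjusted p = 0.013). HIF1AN, the asparaginyl hydroxylase, lay between 97.5 and 101 CPM with control-siRNA and between 106 and 112 CPM with TAZ-siRNA, a log2 change of 0.15 (SE 0.046, edgeR adjusted p = 0.043). In both genes the libraries of the groups were separate, with means at 114% and 111% of control-siRNA.

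VHL, the substrate receptor of the ubiquitin ligase, did not pass the test. It was at 99.7, 103 and 103 CPM with control-siRNA and at 105, 107 and 106 CPM with TAZ-siRNA. The log2 change was 0.06 (95% interval -0.04 to 0.15, edgeR adjusted p = 0.385).

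The calls on the small rises varied with the libraries included, as did the share of all genes called. That share was 13.1% without control-siRNA replicate 1, 11.2% without control-siRNA replicate 2 and 12.1% without control-siRNA replicate 3. It was 11.9% without TAZ-siRNA replicate 1, 15.3% without TAZ-siRNA replicate 2 and 33.7% without TAZ-siRNA replicate 3. Of the 6 fits that each left out 1 library, EPAS1 passed in 6, EGLN1 in 3, ARNT in 1 and HIF1AN in 1, and the fit that ARNT and HIF1AN passed was the one without TAZ-siRNA replicate 3 (adjusted p = 0.0012 and 0.0044). In the other 5 fits the adjusted p of ARNT was 0.060 to 0.095 and that of HIF1AN 0.096 to 0.153, while EGLN1 missed the threshold without control-siRNA replicate 2 (0.083), control-siRNA replicate 3 (0.064) or TAZ-siRNA replicate 1 (0.054). The number of these members called was 2 without control-siRNA replicate 1 or TAZ-siRNA replicate 2, 1 without control-siRNA replicate 2, control-siRNA replicate 3 or TAZ-siRNA replicate 1, and 4 without TAZ-siRNA replicate 3.

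**Figure D3:**
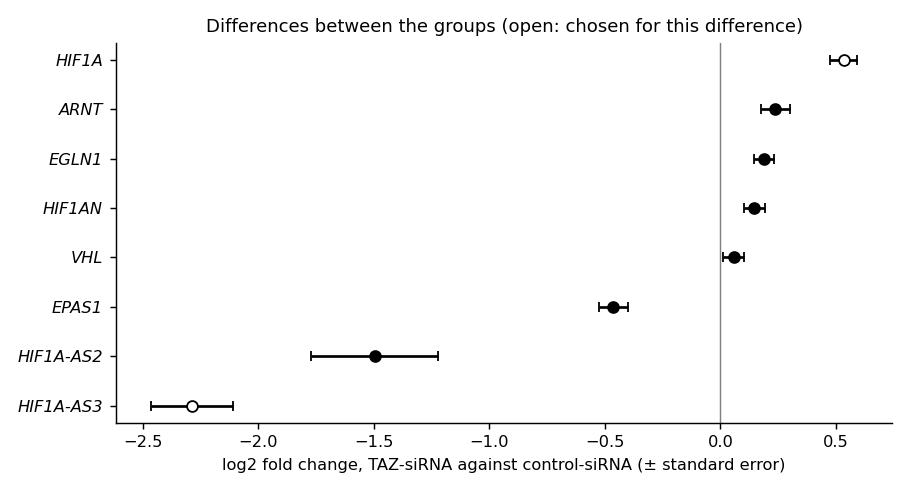
log2 change (TAZ-siRNA against control-siRNA) on the horizontal axis for the 7 members tested and HIF1A-AS2, with bars of 1 standard error. Open points are the members picked for this difference, and filled points were not. EPAS1 and both antisense RNAs are below 0 and VHL (0.06) is the nearest to 0.

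The order of the members by level was compared per length. With control-siRNA the FPKM was 66.2 ± 2.42 for HIF1A, 25.1 ± 0.566 for EGLN1, 20.6 ± 0.504 for VHL, 20.04 ± 0.495 for EPAS1, 8.50 ± 0.437 for HIF1AN, 7.18 ± 0.303 for ARNT, 7.10 ± 0.267 for HIF1A-AS3 and 0.281 ± 0.286 for HIF1A-AS1 (SD, n = 3 each). VHL and EPAS1 overlapped between libraries, and so did ARNT and HIF1A-AS3, whereas the other neighbours in this order did not. With TAZ-siRNA the order of the means was the same, but HIF1AN (9.30 ± 0.311) and ARNT (8.56 ± 0.784) overlapped while VHL (21.6 ± 0.680) and EPAS1 (14.6 ± 0.943) no longer did (SD, n = 3 each). HIF1A-AS3 was at 1.45 ± 0.303 FPKM (SD, n = 3), well below ARNT.

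The transcript models showed which forms carried these levels. Single models were measured imprecisely, with a biological coefficient of variation of 84.4% against 8.04% for genes, and 0.0170% of 64638 transcripts tested had an adjusted p under 0.05 by edgeR. Variant 1 of HIF1A held 96.0 ± 1.56% of the HIF1A count with control-siRNA and 97.5 ± 1.01% with TAZ-siRNA (SD, n = 3 each). Variant 2, which has 14 exons in place of 15, held 1.98 ± 0.217% and 1.97 ± 0.435%. Variant 3, which starts at a separate first exon at 61697622, had counts of 564, 500 and 59 with control-siRNA and of 14, 0 and 352 with TAZ-siRNA, so its groups overlapped. The counts of HIF1A were thus nearly all those of 1 model.

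None of the 27 tested models of the other members passed in edgeR (0 with an adjusted p under 0.05, 4 with an unadjusted p under 0.05), and DESeq2 called 3, where it called 3.61% of 63720 transcripts over the whole table. The main EPAS1 model, NM_001430, had a log2 change of -0.48 and the main EGLN1 model, NM_022051, one of 0.20, both close to the values of their genes (adjusted p = 8.7e-05 and 0.0061 by DESeq2). The third was VHL variant 2, NM_198156, which lacks exon 2 of 3. Its share of the VHL count was 2.63, 2.85 and 2.92% with control-siRNA and 4.97, 7.47 and 7.94% with TAZ-siRNA. All shares with TAZ-siRNA were above all those with control-siRNA (exact permutation p = 0.1, 2-sided, the smallest that 3 libraries against 3 allow). This model was singled out by its call in these same libraries, so the separation is a description and nothing is read from that p. In CPM, the groups were also separate for the main EPAS1, EGLN1 and HIF1AN models and for the ARNT models XM_005245157 and XM_017001294. These ARNT models had an adjusted p of 0.827 and 0.753 by edgeR. The share of all transcripts with separate groups was not computed, so nothing is read from these separations. The log2 change of VHL variant 2 was 1.35 (SE 0.29, adjusted p = 0.342 by edgeR and 8.5e-05 by DESeq2). VHL variant 1, with all 3 exons, held 91.9 ± 1.61% and 88.5 ± 1.16% (SD, n = 3 each). The 24 models of ARNT were scattered. Its variant 1, NM_001668, ran from 37 to 1276 counts among the control-siRNA libraries alone.

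The exon that separates these VHL models is shown because the share above rests on reads that skip or cross it. It has 123 bases on the plus strand, chr3:10146514-10146636 in GRCh38, and all of it is exonic in variant 1 and absent from variant 2.
VHL exon 2: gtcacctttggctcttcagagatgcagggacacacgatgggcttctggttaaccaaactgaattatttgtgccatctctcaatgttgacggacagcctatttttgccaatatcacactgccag

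**Figure D4:**
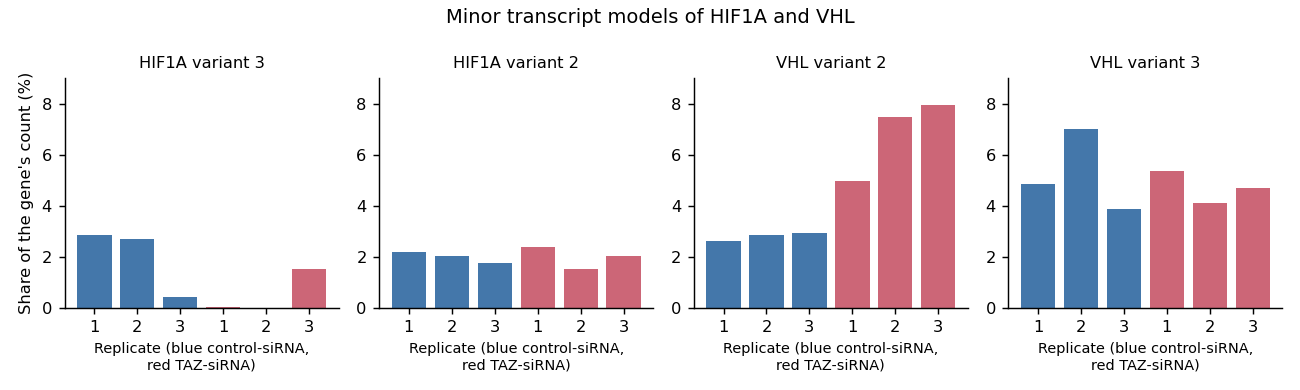
Share of the gene's count held by the minor models of HIF1A and VHL in each library, in percent on axes that start at 0. Bars are single libraries, control-siRNA in blue and TAZ-siRNA in red. The share of VHL variant 2 is at most 2.92% with control-siRNA and at least 4.97% with TAZ-siRNA, whereas the other models overlap between groups.

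The other genes of the pathway passed the test at a rate near that of all genes. Of 23 listed, 21 were tested and 4 passed in edgeR, with 3 rises and 1 fall in response to TAZ-siRNA, where 22.1% of all genes passed. Their median log2 change was 0.03, against -0.01 for all genes tested. EGLN3, a prolyl hydroxylase that is itself a known HIF target, rose from 51.2, 56.5 and 53.9 CPM to 78.1, 74.4 and 96.1 CPM (log2 change 0.62, edgeR adjusted p = 0.0013). ARNT2, an alternative partner of the alpha subunits, rose from 21.4 ± 0.0430 CPM to 29.5 ± 2.60 CPM (SD, n = 3 each), a log2 change of 0.47 (edgeR adjusted p = 0.0015). P4HTM, a membrane-bound prolyl hydroxylase, had a log2 change of 0.30 (edgeR adjusted p = 0.0059). EGLN2, the remaining prolyl hydroxylase on the list and named after its values were seen, did not pass (log2 change -0.06, edgeR adjusted p = 0.486). CITED2, which competes with HIF for coactivators, fell with a log2 change of -0.19 (edgeR adjusted p = 0.015). None of the 4 listed subunits of the VHL ubiquitin ligase passed (0 of 4, too few to compare with the 22.1% of all genes), with log2 changes from -0.10 to 0.04. HIF3A, the remaining alpha subunit, had no count in any library. Without TAZ-siRNA replicate 3, 10 of 22 tested genes passed, 6 higher and 4 lower, and 33.7% of all genes passed in that fit (17.6% higher and 16.1% lower). CITED2 missed the threshold without control-siRNA replicate 1 (adjusted p = 0.068), control-siRNA replicate 3 (0.071) or TAZ-siRNA replicate 1 (0.071).

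Known HIF target genes moved in both directions. Of 35 listed, 34 were tested and 11 passed in edgeR, with 9 rises and 2 falls, against 11.9% higher and 10.2% lower among all genes. The median log2 change of the list was -0.0048, almost that of all genes tested (-0.0054). Both carbonic anhydrases on the list rose. CA9, which controls pH at the cell surface, went from 33.2 ± 3.32 CPM to 47.0 ± 2.83 CPM (SD, n = 3 each), with no overlap (log2 change 0.50, edgeR adjusted p = 0.0016), and CA12 had a log2 change of 0.44 (edgeR adjusted p = 0.0022). VEGFA, the main growth factor of blood vessels, rose from 305 ± 1.90 CPM to 391 ± 6.61 CPM (SD, n = 3 each), a log2 change of 0.36 (edgeR adjusted p = 0.0010). PFKFB4, which sets the level of a glycolytic activator, had a log2 change of 0.37 (edgeR adjusted p = 0.0019).

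The falls were in STC2, a secreted glycoprotein hormone (log2 change -0.32, edgeR adjusted p = 0.043), and HK2, the first enzyme of glycolysis (-0.27, edgeR adjusted p = 0.030). Of the 10 listed genes of glucose transport and glycolysis, 3 rose and 1 fell, and of the 4 of mitochondrial adaptation 0 passed in edgeR. Subsets this small cannot be set against the 22.1% of all genes called, so nothing is read from them. PGK1 (log2 change 0.0023), ENO1 (-0.01) and LDHA (-0.07), abundant glycolytic enzymes named after their values were seen, did not pass. EPO was counted in 1 library only. The number of targets called was 6 without control-siRNA replicate 1, 5 without control-siRNA replicate 2, 6 without control-siRNA replicate 3, 5 without TAZ-siRNA replicate 1, 8 without TAZ-siRNA replicate 2 and 20 without TAZ-siRNA replicate 3. The share of all genes called was 11.2% to 15.3% in the first 5 of these fits and 33.7% in the last, so both rose together. In that last fit 11 targets were higher and 9 lower, whereas the falls were 0 in each of the other 5, with adjusted p of 0.084 to 0.129 for HK2 and 0.077 to 0.167 for STC2. STC2 also missed the threshold with no filter on low counts (adjusted p = 0.056) and with limma on FPKM (0.128 and 0.145).

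**Figure D5:**
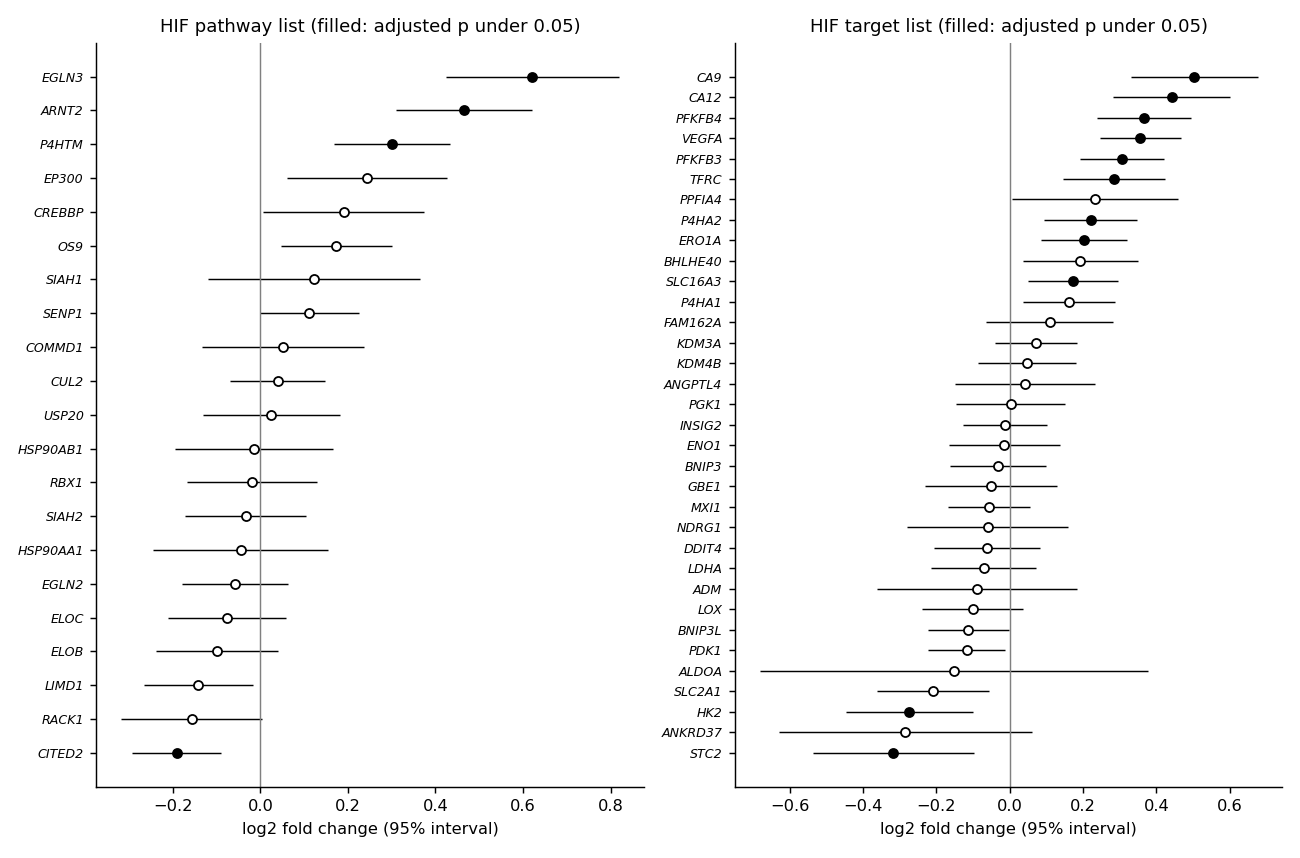
log2 change (TAZ-siRNA against control-siRNA) of the tested genes of the HIF pathway list (left, 21 genes) and the HIF target list (right, 34 genes), with 95% intervals. Filled points have an adjusted p under 0.05 by edgeR. EGLN3 (0.62) and CA9 (0.50) lie highest, and most genes of both lists lie near 0.

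The genes whose levels over the 6 libraries were most like those of 3 members were found by Pearson's r of log2 CPM over all tested genes whose mean reached 10 CPM. For HIF1A these were MAN2A1, PLAGL2, MIDN, METTL4 and PHTF1, with r from 0.997 to 0.998 and log2 changes of 0.27 to 0.38. For HIF1A-AS3 they were NOP14, GTPBP8, RABEPK, NPRL3 and EPS8 (r 0.997 to 0.999), all lower by smaller amounts than HIF1A-AS3, with log2 changes of -0.44 to -0.25. For EPAS1 they were MYCBP, TIMM9, SNHG3, CTNNAL1 and NEMP2 (r 0.997 to 0.998). With 6 points in 2 groups, r is set mainly by the difference between the groups, and 35 to 46 of 9938 or 9939 genes had an r over 0.99.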

How the data were processed

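Paired reads were aligned by the authors to GRCh38 in HISAT2 after trimming, and StringTie gave the abundance of each RefSeq model. The deposited estimated counts per gene and transcript are whole numbers and were used as given. In the deposited FPKM the authors had scaled for length and depth. The deposited TPM were used for no result. The submitters' processing notes also name Bowtie 0.12.2 and a mouse build, with no role given. Versions and the strand setting of the counting are not given in the sources used here.

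Counts were compared with edgeR 4.0.16 in R 4.3.3 (TMM, filterByExpr with 10 counts as the minimum, robust quasi-likelihood test, Benjamini-Hochberg adjustment over all features tested, threshold 0.05). Standard errors are the absolute log2 fold change over the root of F. CPM are counts over TMM-scaled library sizes. Alternatives used DESeq2 1.42.0, limma 3.58.1 on log2(FPKM + 1), the same with 0.1 added, other filters and factors, a replicate block, and each library left out.

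Exon models were GENCODE v44 models whose ends, set to the deposited start and end, gave the deposited length. Sequences came from RefSeq promoter windows and the GRCh38 genome. Members and lists were chosen with earlier results of these data known. Named genes are the members, overlapping genes, up to 4 largest rises and falls per list among those called, list genes with no count, the 5 genes most like HIF1A, HIF1A-AS3 and EPAS1 by Pearson's r, and WWTR1. The floor of 3 counts covers counting error only. Replicates are described as separate cell preparations.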

Additional observations from a re-analysis of the deposited data

How the results depend on the processing

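The log2 fold change of HIF1A stayed between 0.49 and 0.56 under all 14 alternatives, and that of EPAS1 was past the threshold under all 14 (-0.53 to -0.41). None of the results recomputed here changed direction. SNAPC1, KRT19, EGLN2, PGK1, ENO1, LDHA, the likeness genes and the VHL variant 2 share were not recomputed. That of HIF1A-AS3 was -1.73 with limma on log2(FPKM + 1), where the added constant shrinks low values, and -2.48 to -2.12 with each library left out. The summed HIF1A and HIF1A-AS3 gave 0.41 with limma on log2(FPKM + 1) and 0.42 on log2(FPKM + 0.1), where FPKM were added so that the short HIF1A-AS3 weighs more, and 0.48 to 0.55 with each library left out. The number of the other members called was 2 with limma on either scale and 1 to 4 with each library left out. With each library left out, the pathway list gave 3 to 10 calls, the target list 5 to 20, while all genes gave 1937 to 5928 (11.2% to 33.7%), and the transcripts of the other members 0 to 0. DESeq2 called 3 of these transcripts and 3.61% of all transcripts. HIF1AN lost its call in 8 of 14 alternatives, ARNT in 7, EGLN1 in 3, STC2 in 8, HK2 in 5 and CITED2 in 3. HIF1A-AS2 kept its call in 14 of 14, with -0.42 in place of -1.50 with limma on log2(FPKM + 1).

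With the replicate number as a replicate block, 9 pathway genes were called, 6 higher and 3 lower. Over all genes the block called 5122, against 3749 without it (30.2% and 22.1%). Same-numbered libraries did not deviate together (correlations of -0.017, 0.0086 and 0.070), and not every library was most like that of its own number, so the numbers were not taken to pair the samples. The block changed no call on a member. Depth limits HIF1A-AS1, at 4 to 22 counts per library. The sum with HIF1A-AS2 included was chosen after seeing the data.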
